A study of Rattus norvegicus with 20 samples.

Results

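The genes of the mitochondrial respiratory chain and ATP synthase were compared in the shell of the nucleus accumbens between rats that drank ethanol and rats that drank water. Members were all genes with a probe set naming only that gene whose symbol begins with Nduf, Uqcr, Atp5 or Cox followed by a number from 4 to 8, together with the succinate dehydrogenase genes and Cyc1. Where a gene had more than 1 probe set, the one with the highest mean over 20 arrays was taken. The rule found 87 of the 14218 genes named by such probe sets. They were 34 genes of complex I, 4 of complex II, 8 of complex III, 18 of complex IV, 15 of ATP synthase (complex V), 6 assembly factors of complex I, the ATP synthase inhibitor Atp5if1 and the pseudogene Cox6c-ps1. Of these, 82 lay above the dim level, a mean of 6.65 on the log2 scale below which no probe set was tested, and 5 lay below it. Cytochrome c itself (Cycs) and the subunits encoded by mitochondrial DNA were not analysed here.

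Oxidative phosphorylation passes electrons from NADH and succinate through complexes I to IV to oxygen and stores the energy as a proton gradient across the inner mitochondrial membrane, which ATP synthase uses to make ATP. Most subunits are encoded in the nucleus, and a core set is encoded in mitochondrial DNA. In brain, most of this ATP restores the ion gradients that synaptic signalling and action potentials run down, and neurons depend on it more than on glycolysis.

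All animals were alcohol-preferring (P) rats, a line selected over generations for drinking much ethanol by choice. In the ethanol group (n = 10 animals) the rats could drink ethanol solutions of 15 and 30% during adolescence, and the water group (n = 10 animals) was offered only water. Sex, the age at which tissue was taken, the amount drunk and the time since the last drink are not given in the labels used here. Each animal gave 1 array, so the spread within a group includes the spread between animals, and the comparison asks which of these transcripts differed after ethanol access.

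Striatal tissue was present in every library: the mean of 21 medium spiny neuron markers had its lowest animal at 12.37 and its median at 12.82 in ethanol, and its lowest at 11.68 and its median at 12.72 in water. All 21 were on average higher in ethanol (median difference 0.24), and all 12 oligodendrocyte markers were on average lower (median -0.16, with list means from 11.04 to 11.94 in ethanol and from 11.02 to 11.98 in water). Water animals 17, 19 and 20 had the lowest medium spiny neuron list means in water, 11.95, 12.16 and 11.68. The other 7 water animals lay at 12.62 to 12.99. Ethanol animals 7 and 8, with list means of 12.57 and 12.37, also lay below those 7 but were kept. The difference of list means was 0.25 with all animals and 0.15 without water animal 20 alone. It was -0.02 without water animals 17, 19 and 20, when 8 of 21 markers were higher in ethanol. Leaving out water animals for low values raises the water mean by construction, so the smaller difference is no separate result. The oligodendrocyte difference of list means went from -0.17 to -0.0095 without the same 3. Of the other lists, 4 of 9 general neuronal markers, 3 of 10 astrocyte markers, 2 of 11 microglial markers and 7 of 9 endothelial markers had a positive difference, and no marker of any of these lists passed the test. No marker named here could be at 0, since the lowest log2 value of any probe set was 3.89. A value above 0 therefore does not show that a marker was expressed. Water animals 12, 17 and 20 stood apart, with median correlations to the other arrays of 0.982, 0.980 and 0.972. Fits are also given without water animals 12, 13, 17, 19 and 20, a choice taken over from an earlier analysis of these data and made there after values were seen. No value here sets animal 13 apart, so differences under that choice show only how far the results depend on which water animals enter. The 3' minus 5' value of the control probe sets, which grows as RNA shortens, was 1.16 ± 0.11 (SD, n = 10) in ethanol and 1.29 ± 0.15 (SD, n = 10) in water. In bulk tissue, fewer cells of a type and less RNA per cell cannot be told apart.

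No oxidative phosphorylation gene differed between ethanol and water animals by limma's moderated test, adjusted over all probe sets (Benjamini-Hochberg, threshold 0.05). The count was 0 higher and 0 lower of 82, against 20 of 20695 probe sets called in the whole table (0.0966%), which gave 10 of 10746 genes (0.0931%). At an unadjusted p under 0.05 there were 3 members higher and 3 lower in ethanol, where 5.24% and 4.77% of all genes met that level in each direction. Welch's test on every probe set above the dim level, adjusted the same way, also called 0 members. Adding 1 covariate, either the 3' minus 5' level of each array or its mean of the oligodendrocyte or medium spiny neuron markers, limma called 0 members too, with lowest adjusted p-values of 0.746, 0.327 and 0.330. Of the 82 genes, 38 had a positive and 44 a negative difference, and 49.9% of all genes had a negative one. The median difference was -0.0024 on the log2 scale, beside 0.00016 over all genes tested.

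The members were measured more tightly than most genes. Their median within-group SD was 0.074, against 0.125 over all genes, and their median SE of the difference was 0.038, against 0.056. The median SE was 0.039 for cytosolic ribosomal, 0.038 for mitochondrial ribosomal and 0.039 for proteasome genes. The small spread is therefore not particular to the members. Differences ran from -0.09 for Ndufa5 to 0.12 for Ndufaf1, whereas the 5th and 95th percentiles of all genes were -0.15 and 0.16. The 95% interval of the difference stayed within 0.2 either way for 76 of 82 members and for 6717 of 10746 genes. The outermost interval bounds of any member were -0.25 and 0.28. The ethanol and water values overlapped for all 82. How many of all genes tested overlapped in this way was not counted, so the overlap does not set the members apart. Of these genes, 70 were in the top 10% of signal on the array.

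**Figure D1:**
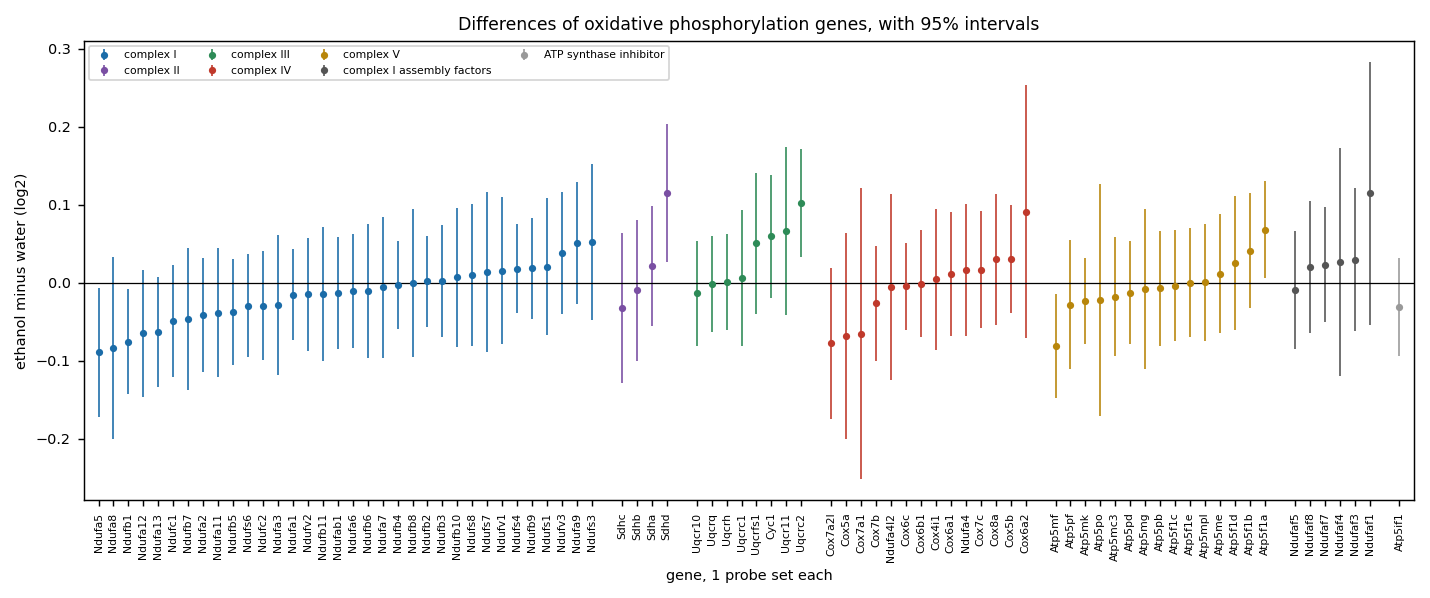
Ethanol minus water difference (log2) of each of the 82 genes above the dim level, grouped by complex; points are differences and bars are 95% intervals from limma's moderated variance. The points lie between -0.09 and 0.12, and no gene passed the adjusted threshold.

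Per animal, the level of the whole set was nearly the same in both groups. The mean over 82 members ran from 12.46 (animal 8) to 12.60 (animal 5) in ethanol and from 12.45 (animal 16) to 12.59 (animal 20) in water. Group means were 12.52 ± 0.04 (SD, n = 10) in both. Ethanol animal 5 had the highest mean of its group in each of complexes I to V and in the assembly factors. Water animal 20, 1 of the 3 arrays that stood apart, was the highest water animal in complexes I to IV, and water animal 18 in complex V. Water animal 16 was the lowest water animal in complexes I, IV and V.

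**Figure D2:**
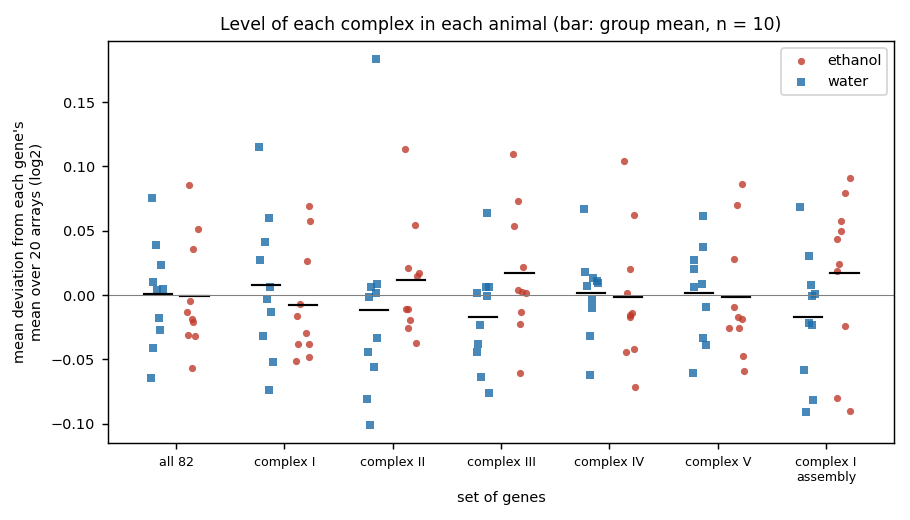
Mean log2 deviation of the members of each complex from their mean over 20 arrays, 1 point per animal, with water (squares) and ethanol (circles) side by side and a bar at each group mean, n = 10. The groups overlap in every complex, and the highest circle is ethanol animal 5 in each.

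Promoter sequence was examined because nuclear respiratory genes are textbook targets of NRF1 and of the ETS factor GABPA. The 250 bases before the annotated start, from RefSeq's rat assembly GRCr8, were found for 78 of the 86 members other than the pseudogene. Exact letters were searched on both strands, and the share of members with a match is set beside the share of 27457 promoters in the table and of the 9001 that belong to genes tested. The NRF1 letters GCATGCGC occurred in 11.5% of members, 2.38% of all promoters and 4.63% of tested genes. The ETS letters CCGGAAG occurred in 26.9%, 7.74% and 15.3%, respectively. The YY1 letters ATGGCGG occurred in 8.97%, 2.54% and 4.07%.

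The other searched letters gave a different order. The Sp1 letters GGGGCGGGG occurred in 5.13% of members, 9.74% of all promoters and 19.5% of tested genes. Shares for the CREB letters TGACGTCA were 2.56%, 1.70% and 3.03%, and those for the ESRR letters AAGGTCA were 7.69%, 3.77% and 2.44%. NRF1, ETS or YY1 letters occurred in 28 of 78 members (35.9%), against 11.8% of all promoters and 22.0% of tested genes. The median G and C content of the windows was 55.2% in members, 60.8% in tested genes and 52.0% in all promoters. A match describes letters, not binding, and the shares carry no test.

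Counts by complex rest on few promoters, and differences between complexes were not tested. In complex I, 2 of 32 promoters held the NRF1 letters, 7 the ETS letters and 5 the YY1 letters. Complex II had 1 of 4 with NRF1 and 2 with ETS, and complex III had 1 of 6 and 3. In complex V, 3 of 14 held NRF1, 5 ETS and 2 YY1, and 4 held the ESRR letters. Of 15 complex IV promoters, 0 held NRF1 or YY1 and 2 held ETS, those of Cox5b and Cox8a. These 15 include the muscle and testis isoforms Cox6a2, Cox6b2, Cox7a1, Cox7b2 and Cox8b. The shares over all members, 11.5% for NRF1 and 8.97% for YY1, would give few matches in 15 promoters. A count of 0 therefore does not set complex IV apart.

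Below are 4 of these windows, each ending at the base before the start, 5′ to 3′ on the gene's strand, with NRF1, ETS and YY1 letters in capitals. Ndufa6, an accessory subunit of complex I, is shown because it was the 1 member with all 3 kinds: its window at chr7:115750318-115750567 (minus strand) held NRF1 letters 104 bases, ETS letters 190 bases and YY1 letters 227 bases before the start. Sdhb, the iron-sulphur subunit of succinate dehydrogenase, is shown as a member with NRF1 (167 bases) and ETS (108 bases) at chr5:158547684-158547933 (plus strand). Uqcrc2 and Sdhd are shown because they had the smallest p-values among the members. Uqcrc2, a core subunit of complex III, held ETS letters 117 and 28 bases before its start, at chr1:184598990-184599239 (plus strand). Sdhd, a membrane anchor of complex II, held ETS letters 48 bases before its start, at chr8:59850642-59850891 (minus strand).
Ndufa6: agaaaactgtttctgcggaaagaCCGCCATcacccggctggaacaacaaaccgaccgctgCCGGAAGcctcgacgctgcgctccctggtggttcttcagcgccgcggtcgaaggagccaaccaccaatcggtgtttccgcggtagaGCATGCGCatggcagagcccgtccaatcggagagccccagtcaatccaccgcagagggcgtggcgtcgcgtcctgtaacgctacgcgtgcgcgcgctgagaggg
Sdhb: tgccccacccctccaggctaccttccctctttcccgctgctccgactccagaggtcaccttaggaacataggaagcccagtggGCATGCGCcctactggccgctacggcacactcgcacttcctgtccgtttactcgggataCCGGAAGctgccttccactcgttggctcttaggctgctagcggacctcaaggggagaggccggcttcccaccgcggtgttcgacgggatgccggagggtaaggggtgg
Uqcrc2: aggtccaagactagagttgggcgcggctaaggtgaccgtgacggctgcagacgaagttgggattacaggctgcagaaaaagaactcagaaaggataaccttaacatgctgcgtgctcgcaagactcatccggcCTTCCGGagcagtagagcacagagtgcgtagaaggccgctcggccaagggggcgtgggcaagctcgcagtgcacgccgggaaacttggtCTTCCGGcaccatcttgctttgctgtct
Sdhd: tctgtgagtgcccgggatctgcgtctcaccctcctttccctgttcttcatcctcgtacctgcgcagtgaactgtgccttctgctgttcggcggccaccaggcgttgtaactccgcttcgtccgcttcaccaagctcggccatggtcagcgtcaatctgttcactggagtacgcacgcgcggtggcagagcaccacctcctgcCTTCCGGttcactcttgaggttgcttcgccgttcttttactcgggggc

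Complex I, the NADH dehydrogenase and the entry point for electrons from NADH, had 12 positive and 22 negative differences among its 34 members, with a median of -0.012 (all genes 0.00016). No member passed, and with each animal left out in turn the count of negative differences ran from 17 to 27 and the median from -0.021 to 0.0012. The sign of the median changed without water animal 20 alone (17 of 34 negative, median 0.0012). Without the 3 arrays that stood apart, 18 of 34 were negative (median -0.00093). Without water animals 12, 13, 17, 19 and 20 there were 14 (median 0.0021).

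The 6 core subunits measured, most of which carry the flavin or iron-sulphur centres, had a median of the other sign than the accessory ones. This split was made after values were seen and has no test. Of the core subunits 5 had a positive difference (median 0.015), and of the 28 accessory subunits 21 had a negative one (median -0.015). Ndufs1, which holds iron-sulphur clusters of the electron path, was at 12.15 ± 0.06 in ethanol and 12.13 ± 0.11 in water (SD, n = 10 each). Ndufv1, which binds the flavin and NADH, was at 12.34 ± 0.08 and 12.33 ± 0.11. Neither passed (limma adjusted p = 0.857 and 0.902), with intervals of -0.07 to 0.11 and -0.08 to 0.11. Leaving out water animals 12, 13, 17, 19 and 20 took the accessory subunits to 12 negative of 28, with a median of 0.0016 beside 0.0064 for the core, so that both were positive. Leaving out the 3 arrays that stood apart left 17 accessory subunits negative. The core subunits were 3 positive and 3 negative with the oligodendrocyte or the medium spiny neuron mean as a covariate (medians 0.0010 and 0.0033), without water animals 17, 19 and 20, and without water animal 19 or ethanol animal 2 alone.

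Among the accessory subunits, Ndufa5 of the peripheral arm had the lowest difference of all members. Its values were 10.99, 11.02 and 11.13 (lowest, median and highest) in ethanol and 10.98, 11.14 and 11.30 in water. The ethanol animals were packed at the low end of the water range, and 9 of 10 lay below the water mean. The difference was -0.09 (SE 0.040, 95% interval -0.17 to -0.01, limma adjusted p = 0.393), and it was -0.04 without the 3 arrays that stood apart and -0.02 without water animals 12, 13, 17, 19 and 20.

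Ndufb1, a small subunit of the membrane arm, ran from 12.71 through a median of 12.82 to 12.89 in ethanol. In water it ran from 12.78 through 12.90 to 12.95. Again 9 of 10 ethanol animals were below the water mean while the ranges overlapped. The difference of -0.08 (SE 0.032, interval -0.14 to -0.01) did not pass (limma adjusted p = 0.379). It lay between -0.10 and -0.06 in all alternatives run.

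Ndufa13, a subunit with a membrane-spanning helix, and Ndufa8, which faces the intermembrane space, were named next by the rule and by size of difference. Ndufa13 differed by -0.06 (limma adjusted p = 0.454) and Ndufa8 by -0.08 (adjusted p = 0.538), each with 9 of 10 ethanol animals below the water mean. For Ndufa8 the water animals spread from 13.14 to 13.73 and the ethanol animals from 13.20 to 13.38, so the water group alone covered the ethanol one. The interval for Ndufa8 ran from -0.20 to 0.03, and its difference was 0.03 without water animals 12, 13, 17, 19 and 20.

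Assembly factors that the rule's symbol pattern takes in build complex I without staying in it. Of the 6 measured, 5 had a positive difference (median 0.025). Ndufaf1, a chaperone of the early membrane intermediates, was dim and ran from 6.59 through 7.07 to 7.33 in ethanol and from 6.71 through 6.91 to 7.04 in water. Ethanol animals therefore lay both below and above all water animals. Its difference of 0.12 (interval -0.05 to 0.28) had a limma adjusted p of 0.557 and was 0.06 once the 3' minus 5' level was a covariate. Ndufaf3 and Ndufaf7 differed by 0.03 and 0.02.

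Complex II, succinate dehydrogenase, links the tricarboxylic acid cycle to the chain and is the complex with no subunit from mitochondrial DNA. Its members had 2 positive and 2 negative differences (median 0.0057). With each animal left out in turn the median ran from -0.0048 to 0.033, and without water animal 20 alone all 4 were positive (median 0.033). All 4 were also positive with array weights (median 0.025), without the 3 arrays that stood apart (0.028) and with the medium spiny neuron mean as a covariate (0.031). The catalytic Sdha, with the flavin, was at 12.24 ± 0.04 in ethanol and 12.22 ± 0.09 in water (SD, n = 10 each), and Sdhb was at 12.68 ± 0.07 and 12.69 ± 0.11. The membrane anchor Sdhc was at 12.58 ± 0.05 and 12.61 ± 0.13. None of these passed (limma adjusted p = 0.831, 0.943 and 0.781).

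Sdhd, the other anchor, had a larger difference than the rest of its complex. It ran from 12.45 through a median of 12.55 to 12.67 in ethanol and from 12.27 through 12.42 to 12.61 in water. All 10 ethanol animals were above the water mean, and several water animals were within the ethanol range. The difference of 0.11 (SE 0.042, interval 0.03 to 0.20, 1.08-fold) did not pass (p = 0.013, limma adjusted p = 0.327). A further Sdhd probe set differed by 0.15 (SE 0.058, adjusted p = 0.329), also with all 10 ethanol animals above the water mean. Without water animals 12, 13, 17, 19 and 20 the Sdhd difference was 0.04, and without the 3 arrays that stood apart it was 0.07.

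Complex III, the cytochrome bc1 complex, passes electrons from ubiquinol to cytochrome c. Of its 8 members 6 had a positive difference, with a median of 0.028 (all genes 0.00016), and 4 to 7 were positive when each animal was left out in turn. The median lay between 0.016 and 0.041 in those fits. No member passed.

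Uqcrc2, a core protein of the matrix side, had the smallest p of all members. Its values were 13.13, 13.17 and 13.30 (lowest, median and highest) in ethanol and 12.94, 13.09 and 13.16 in water. All 10 ethanol animals were above the water mean, and the highest water animals lay among the lower ethanol ones. The difference of 0.10 (SE 0.033, interval 0.03 to 0.17, 1.07-fold) did not pass after adjustment over all probe sets (p = 0.0056, limma adjusted p = 0.298). The other Uqcrc2 probe set differed by 0.25 (SE 0.117, adjusted p = 0.404). Once the 3' minus 5' level was a covariate, the Uqcrc2 difference was 0.06.

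The catalytic members of complex III had smaller differences. Cyc1, the haem-bearing cytochrome c1, differed by 0.06 (interval -0.02 to 0.14, limma adjusted p = 0.519), with 6 of 10 ethanol animals above the water mean. Uqcrfs1, the Rieske iron-sulphur protein, differed by 0.05 (interval -0.04 to 0.14, adjusted p = 0.631), with 9 of 10 above. The small subunit Uqcr11 differed by 0.07 (interval -0.04 to 0.17, adjusted p = 0.599), and by -0.05 without water animals 12, 13, 17, 19 and 20.

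**Figure D3:**
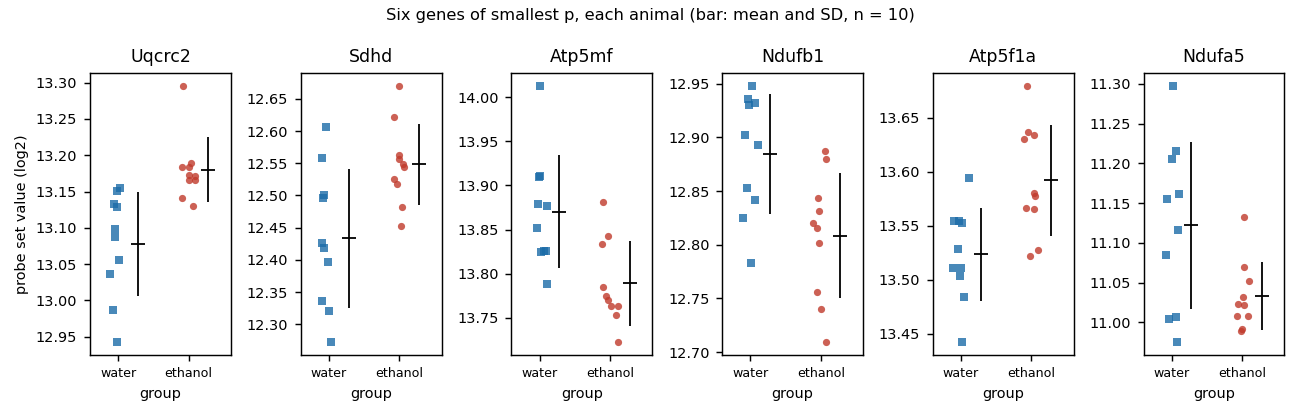
Log2 values of the 6 members with an unadjusted p under 0.05 (Uqcrc2, Sdhd, Atp5f1a, Atp5mf, Ndufb1 and Ndufa5), 1 point per animal with bars at the mean and SD, n = 10 per group. The points of ethanol and water overlap in each panel, and no gene passed the adjusted threshold.

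Complex IV, cytochrome c oxidase, reduces oxygen to water. Of its 18 members 14 were above the dim level, with 7 differences above and 7 below 0 (median 0.0014, and from -0.0072 to 0.012 with each animal left out in turn, negative in 7 of those 20 fits). Several of its subunits come as isoforms of different tissues, and the group includes Ndufa4, which was first named as a complex I subunit and is now counted with cytochrome c oxidase. No member passed, and none had an unadjusted p under 0.05.

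The isoforms found in brain and most tissues were bright and nearly equal in both groups. Cox4i1, which takes part in the regulation of the enzyme by ATP, ran from 13.61 through 13.74 to 13.80 in ethanol and from 13.60 through 13.70 to 13.99 in water. Its difference was 0.0042 with an interval of -0.09 to 0.09. Cox6a1, Cox6b1 and Cox8a differed by 0.01, -0.0014 and 0.03. Ndufa4 differed by 0.02 and its relative Ndufa4l2 by -0.0054.

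Isoforms known from muscle, lung or testis were dim here, and no order is read between different probe sets. The lung isoform Cox4i2 and the testis isoforms Cox6b2 and Cox7b2 were below the dim level, as was the muscle isoform Cox8b. Their means in ethanol and water were 5.84 and 5.87 for Cox4i2, 5.96 and 6.06 for Cox6b2, 5.07 and 5.04 for Cox7b2 and 5.98 and 5.94 for Cox8b. The pseudogene Cox6c-ps1, also below the level, was at 6.56 and 6.59. The muscle isoforms Cox6a2 and Cox7a1 lay just above the level. Cox6a2 differed by 0.09 (interval -0.07 to 0.25) and Cox7a1 by -0.07 (interval -0.25 to 0.12).

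The smallest p-values in complex IV belonged to Cox7a2l, Cox6a2 and Cox5a. Cox7a2l, a factor that joins complexes III and IV into supercomplexes, ran from 12.22 to 12.36 in ethanol and from 12.22 to 12.59 in water. Ethanol animals occupied the lower part of the water range. Its difference was -0.08 (interval -0.17 to 0.02, limma adjusted p = 0.496) and turned to 0.02 without water animals 12, 13, 17, 19 and 20. Cox5a, a nuclear subunit on the matrix side, differed by -0.07 (adjusted p = 0.660) and by 0.03 without those animals.

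Complex V, ATP synthase, turns the proton gradient into ATP with the F1 part (the catalytic head and the central stalk that turns in it), a peripheral stalk and a membrane part. Its 15 members had 6 positive and 9 negative differences (median -0.0071), and 7 to 12 were negative when each animal was left out in turn. The median was positive without ethanol animal 7 (0.0016) or water animal 18 (0.0027). A split by location, made after values were seen and without a test, gave 4 of 5 positive in the F1 part, Atp5f1a to Atp5f1e (median 0.025). In the peripheral stalk 0 of 4 were positive (median -0.017), and in the membrane part 2 of 6 (median -0.013). With each animal left out in turn, 3 to 5 were positive in the F1 part, 0 to 1 in the peripheral stalk and 0 to 3 in the membrane part. The median of the membrane part ran from -0.024 to 0.0056 in those fits. The further, dimmer probe set of the stalk gene Atp5po differed by 0.06, the other sign than the chosen one.

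Atp5f1a, the alpha subunit of the head, ran from 13.52 through a median of 13.58 to 13.68 in ethanol and from 13.44 through 13.52 to 13.59 in water. Of the ethanol animals 9 of 10 were above the water mean, and the ranges overlapped. The difference of 0.07 (SE 0.030, interval 0.01 to 0.13) did not pass (limma adjusted p = 0.385). Atp5f1b, the beta subunit with the catalytic sites, differed by 0.04 (interval -0.03 to 0.12, adjusted p = 0.631), with 8 of 10 above.

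Atp5mf, subunit f of the membrane part, had the smallest p on the low side. It ran from 13.72 through a median of 13.77 to 13.88 in ethanol and from 13.79 through 13.86 to 14.01 in water. Of the ethanol animals 9 of 10 were below the water mean, with overlap between 13.79 and 13.88. The difference of -0.08 (SE 0.032, interval -0.15 to -0.01) did not pass (limma adjusted p = 0.353) and was -0.05 without water animals 12, 13, 17, 19 and 20. Atp5mc3, the gene of the proton-carrying c subunit that was measured, differed by -0.02. The inhibitor Atp5if1, which stops ATP hydrolysis when the gradient fails, differed by -0.03 (interval -0.09 to 0.03).

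For 9 members more than 1 probe set named the gene. Besides Uqcrc2 and Sdhd, the further probe sets of Atp5me, Ndufa7 and Ndufaf7 had the same sign as the chosen one. The further, dimmer probe sets of Atp5po, Ndufa9 and Ndufv3 had the opposite sign, with differences of 0.06, -0.11 and -0.09 beside -0.02, 0.05 and 0.04. None passed. For Atp5if1 the other probe sets were below the dim level and differed from each other in sign.

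Members varied together from animal to animal. Over 20 arrays, with group means removed, the median correlation between pairs of members was 0.37 (82.4% of 3321 pairs positive), against 0.022 (52.4% positive) for pairs among all 10746 genes. Within complexes the median was 0.46 in I, 0.47 in II, 0.47 in III, 0.28 in IV and 0.44 in V, and it was 0.11 among the assembly factors. The cytosolic ribosomal proteins reached 0.64, mitochondrial ribosomal proteins 0.24 and proteasome subunits 0.16. These are descriptions over arrays that share normalization, tissue mix and RNA quality.

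Single members followed the rest to different degrees. The median correlation of a gene with the mean of the other members was 0.63. It was highest for Atp5f1d, the delta subunit of the ATP synthase central stalk (0.92), then for Atp5pd of the peripheral stalk (0.90), Uqcrq of complex III (0.88) and Cox5b of complex IV (0.86). It was lowest for the assembly factor Ndufaf4 (-0.16), Atp5po of the stalk (-0.05), Ndufs4 of complex I (-0.02), Cox5a (0.0037), Ndufaf1 (0.05) and Cox7a2l (0.05). The within-group SD was 0.16 for Ndufaf4, 0.17 for Atp5po, 0.15 for Cox5a, 0.19 for Ndufaf1 and 0.10 for Cox7a2l. It was 0.04 for Ndufs4, and the median over members was 0.074. Whether noise of single probe sets lowered these correlations was not tested. Uqcrc2 was also low (0.14), and Sdhb, whose promoter is shown above, was at 0.77. The first principal component held 30.4% of the members' variance, with 73 of 82 loadings of 1 sign, and the next held 25.4%.

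**Figure D4:**
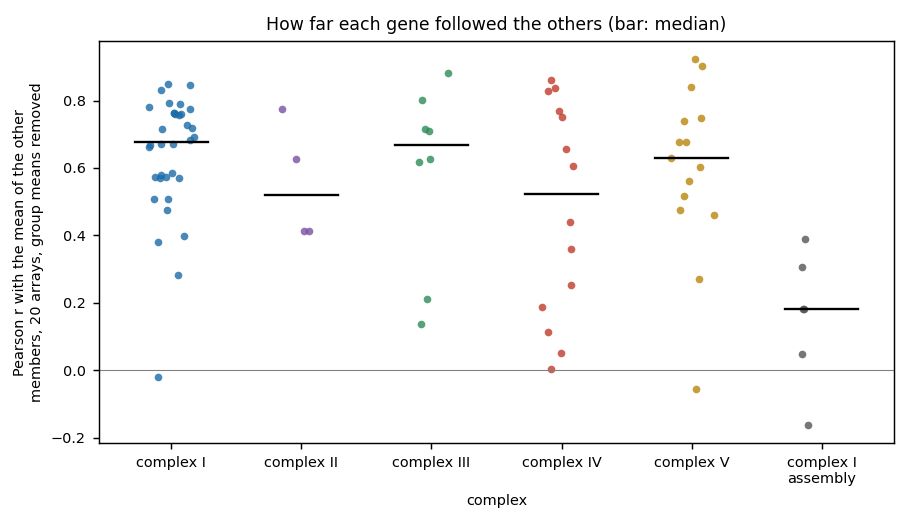
Pearson correlation of each member with the mean of the other members over 20 arrays after removing group means, by complex, with a bar at the median; the inhibitor Atp5if1 is not drawn. Medians lie at 0.68 in complex I, 0.52 in II, 0.67 in III, 0.52 in IV, 0.63 in V and 0.18 in the assembly factors.

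The genes outside the set that were most like its mean over 20 arrays, group means removed, were Smim20 (r = 0.91), Thap4, Kgd4 and Prdx5 (each 0.86) and Tmem223 (0.85). Their ethanol minus water differences were 0.0090, 0.02, 0.05, 0.02 and -0.02. None passed.

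Genes that assemble the complexes outside the symbol rule also gave 0 calls. For complex I assembly 4 of 10 had a positive difference (median -0.016), with Dmac1 at 0.11 and Tmem186 at 0.09 (limma adjusted p = 0.399 and 0.404). Complex II assembly had 2 of 4 positive (median -0.0065), with Sdhaf1 at 0.03 and Sdhaf4 at -0.01. Complex III assembly had 4 of 7 positive (median 0.0021). There Lyrm7, a chaperone of the Rieske protein, differed by 0.20 (adjusted p = 0.287) and Bcs1l, which inserts that protein, by 0.12 (adjusted p = 0.327). Complex IV assembly had 9 of 18 positive (median 0.0050), with Cox18 at 0.11 and Cox14 at 0.13 (adjusted p = 0.353 and 0.369). Complex V assembly had 2 of 5 positive (median -0.018), with the F1 assembly factor Atpaf1 at 0.11 (adjusted p = 0.355) and Fmc1 at -0.03 (adjusted p = 0.681).

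Regulators of mitochondrial biogenesis and the pathways that feed the chain were likewise without a call. Of 24 biogenesis regulators 14 were positive (median 0.0076), led by Polg2, the accessory subunit of the mitochondrial DNA polymerase, at 0.21 (limma adjusted p = 0.300), and Tfb1m at 0.07 (adjusted p = 0.517). In the tricarboxylic acid cycle 7 of 16 were positive (median -0.0050). Pyruvate carboxylase (Pc) differed by -0.10 and the pyruvate dehydrogenase subunit Pdha1 by 0.09 (adjusted p = 0.351 and 0.403). Of 23 genes of electron entry and exchange 12 were positive (median 0.0012), with Etfdh, which passes electrons from fatty acid oxidation to ubiquinone, at 0.12 and the ADP/ATP carrier Slc25a5 at 0.08 (adjusted p = 0.403 and 0.467).

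The remaining lists had the same form. Mitochondrial import and folding had 15 of 27 positive (median 0.010), with the matrix protease Clpp at 0.22 and the import chaperone Timm13 at 0.10 (limma adjusted p = 0.304 and 0.402). Glycolysis had 9 of 16 positive (median 0.0036), with the phosphofructokinase Pfkl at -0.16 and lactate dehydrogenase A (Ldha) at 0.11 (adjusted p = 0.338 and 0.363). Superoxide and peroxide removal had 4 of 10 positive (median -0.0082), with Gpx1 at 0.11 and Txnrd2 at -0.11 (adjusted p = 0.413 and 0.547). Fusion, fission and cristae genes had 8 of 19 positive (median -0.0068), with Chchd10 at 0.08 and Oma1 at 0.09 (adjusted p = 0.415 and 0.456).

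Against other large complexes, oxidative phosphorylation genes had a median near that of all genes. Of 43 cytosolic ribosomal protein genes 39 had a negative difference (median -0.029), of 35 proteasome subunits 20 (median -0.020) and of 73 mitochondrial ribosomal protein genes 35 (median 0.0030). Members of these sets gave 0 calls as well, and the difference between sets was not tested. The leading gene was Rpl13a at -0.11 among cytosolic ribosomal proteins (limma adjusted p = 0.299), Psma3 at -0.14 in the proteasome (adjusted p = 0.308) and Mrps15 at -0.10 among mitochondrial ribosomal proteins (adjusted p = 0.306).

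**Figure D5:**
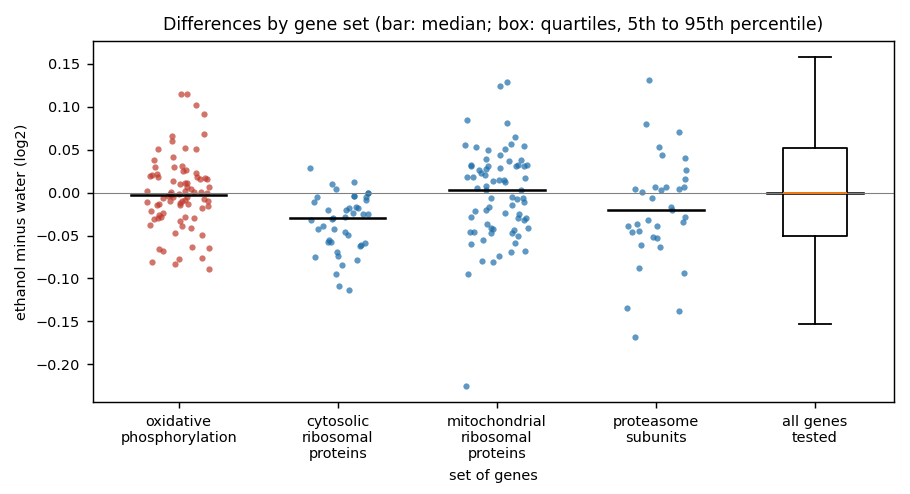
Ethanol minus water differences (log2) by gene set: 1 point per gene and a bar at the median for oxidative phosphorylation, cytosolic ribosomal, mitochondrial ribosomal and proteasome genes, and for all genes tested a box of the quartiles with whiskers from the 5th to the 95th percentile. From left to right the medians are -0.0024, -0.029, 0.0030, -0.020 and 0.00016.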

How the data were processed

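Each of 20 arrays (1-colour Affymetrix, 1 per animal) measured total RNA labelled from the 3' end. Per the submitters' processing notes the values were made with RMA (background correction, normalization between arrays, 1 summary per probe set). Which software, version and chip definition it used is not given in the sources used here. On the log2 scale, on which they were deposited, values ran from 3.89 to 16.25. Normalization of this kind removes any shift that most genes share, and RMA compresses differences of dim probe sets. Depth does not apply to arrays, and the number of arrays limits the precision.

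Of 31099 probe sets, 57 are controls, and the platform's table gave 1 gene for 20826, several for 436 and none for 9780. All 87 members matched RefSeq's table (GRCr8) by identifier, with 0 changed symbols, and 9 probe sets naming a member-like gene with others were not used. Leaving out controls and the 33.3% of probe sets with the lowest mean left 20695 probe sets and 10746 genes. Groups came from the treatment in the labels. They were compared with limma 3.58.1 in R 4.3.3, using its lmFit and eBayes functions (two-sided, no covariates), Benjamini-Hochberg over all probe sets, threshold 0.05, and the fit was tested on simulated data. Differences are ethanol minus water, with 95% intervals from the moderated variance.

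Members and lists were chosen with earlier results of these data known, so no list has a test. Named members are the 3 of smallest p in each complex or class, the 3 largest positive and 3 largest negative differences over all members together, tissue isoforms and catalytic subunits, and per other list the 2 of smallest p. Ndufs4, Atp5pd, Atp5f1d, Uqcrq, Cox5b and other genes named for correlation or promoter letters were chosen after their values were seen. Alternatives used another filter, normalization, test, variance model, threshold, probe set choice or member list, weighted the arrays, added a term, or left out arrays. Animal number 11 was not analysed here.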

Additional observations from a re-analysis of the deposited data

Results flagged for a closer look

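Among 84 group values of named genes and complex means, 9 had an animal far from the other 9 of its group, its gap to the nearest taking a larger share of the group's range than Dixon's 95% critical value. Chance gives about 1 in 20 groups where groups are independent and normally distributed. The values here are not independent, since the mean of complex II includes Sdha and Sdhb and members varied together. The count of 9 is therefore not compared with that rate. Water animal 20, whose array stood apart, was the high value for Sdha (12.454, nearest 12.277), Sdhb (12.955, nearest 12.748), Uqcrfs1 (12.896, nearest 12.708) and the mean of complex II (12.685, nearest 12.511). Water animals 12 and 17, whose arrays also stood apart, were the low values for Ndufs1 (11.874, nearest 12.1) and Ndufaf3 (10.803, nearest 11.048). Water animal 18 was high for Ndufv1 (12.588, nearest 12.376). Ethanol animal 5 was high for Uqcrc2 (13.295, nearest 13.189) and for the dim Cox6a2 (7.0699, nearest 6.7943).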

How the results depend on the processing

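All 19 alternatives and all 20 fits that left out 1 animal called 0 members, and of the 32 named genes tested 0 passed the threshold in any. These alternatives are not independent of the main fit. The subunits alone were read from that fit, so their count of 0 was fixed. The other variance model, Welch's test, the other threshold and the run term cannot change a difference, so their median is that of the main fit. The lowest adjusted p of a member lay between 0.207 and 0.510 when animals were left out. The median difference of the members lay between -0.0081 and 0.011 over the alternatives and between -0.010 and 0.0045 with 1 animal left out, beside an SD between animals of 0.043. Its sign changed to positive with arrays quantile normalized again (0.00019), centred on their medians (0.0037) or weighted (0.0029), without the 3 arrays that stood apart (0.0020), without water animals 12 and 13 (0.00046) and without those and 17, 19 and 20 (0.011). No paired analysis was possible because the groups share no animal numbers. The labels name no batch. The order of deposit falls into 3 runs that each hold both groups, and whether these were processed as batches is not given in the sources used here. With the run as a term the median was -0.0024 and 0 members were called. Each run holds equal numbers of both groups, so this term could change the errors but not the differences. The unchanged median is therefore no check on the runs. The intervals given are for single genes and are not adjusted over probe sets. An interval that excludes 0 therefore need not give a call. That of Uqcrc2 ran from 0.03 to 0.17, and its limma adjusted p was 0.298. The arrays thus limit what can be called to differences larger than the intervals alone imply. Transcripts of mitochondrial DNA were not analysed here.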
